A study of Drosophila melanogaster with 23 samples.

Results

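The data described here are the larval Pdf cells and the larval Tim cells of a study of the circadian circuit of Drosophila melanogaster, 6 of its 23 expression arrays, chosen by their titles as 3 arrays of each kind. Of the 11982 genes that the arrays measured, 7670 were tested. The study took fluorescent cells by hand from dissociated larval brains and adult heads, made RNA from them and hybridised each sample to an Affymetrix array. Its other larval groups were Tim cells from flies that also carried Pdf-Gal80 and neurons in general, and its adult groups were large and small Pdf cells, neurons in general and eyes.

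The Pdf cells came from larvae of the genotype Pdf-Gal4;UAS-GFP, in which the promoter of the neuropeptide gene Pdf drives the yeast activator Gal4 and Gal4 drives a fluorescent reporter. The Tim cells came from Tim-Gal4;UAS-YFP larvae, in which the driver follows the clock gene timeless. A further label calls these same cells GFP-positive. The reporter line changed together with the driver, so the lines and the cell classes cannot be told apart. The 3 arrays of Tim-Gal4;Pdf-Gal80;UAS-YFP larvae, where Gal80 blocks Gal4 in cells that use the Pdf promoter, and the 3 of Elav-Gal4;UAS-GFP larvae are given as side values. About 50 heads per sample were dissected near Zeitgeber time 12, the end of the light phase, from animals kept in 12 h light and 12 h dark. The stage is given as larva, with no age.

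PDF is the peptide by which the ventral lateral neurons of the fly brain signal to other clock neurons, and these neurons are the main pacemaker of rhythms in constant darkness. The timeless gene belongs to the transcriptional feedback loop of the clock and is active in all clock neurons, PDF neurons included, and in several tissues outside them, such as glia and the prothoracic gland of the larval ring gland. The Tim sample is therefore a wider class in which the PDF neurons are nested, and the comparison asks what sets the PDF neurons apart from the whole timeless population. Because a sample is a pool of cells, fewer cells of a type and less RNA per cell cannot be told apart in any value below.

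Each title names a biological replicate without saying whether it came from separate animals. A p-value here thus speaks only of the spread among arrays. Unless stated otherwise, this spread was taken from all groups of the series, not from the Pdf and Tim arrays alone. The number of arrays limits the precision. Values are log2 expression, and 5 on this scale served as the limit of detection, since undetected genes gathered between 2 and 3. Between 72.8% and 79.3% of the tested genes lay above it on each of the 6 arrays. The arrays correlated across genes with r between 0.846 and 0.893 within the Pdf group and between 0.867 and 0.928 within the Tim group. The third Tim array stood closer to the second Pdf array (r = 0.908) than to the first Tim array (r = 0.867). On the first and second Pdf arrays hemocyte genes were high, and on the third Tim array genes of ecdysteroid synthesis were lower than on the other Tim arrays, as described below.

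The cells carried the genes of their labels. Pdf itself stood at 14.47, 14.71 and 15.31 on the Pdf arrays and at 14.54, 14.29 and 14.20 on the Tim arrays. It lay at 3.03, 2.97 and 2.76 with Pdf-Gal80, under the limit of detection. The groups overlapped, and the log2 difference of Pdf between Pdf and Tim cells, 0.49 ± 0.50 (SE), was not called (95% confidence interval -0.56 to 1.53). The neuronal gene elav averaged 12.44 in Pdf cells and 12.77 in Tim cells, and 0 of the 19 tested synaptic vesicle and pan-neuronal genes were called. The mean of these 19 genes was 8.35, 9.89 and 7.09 with Pdf-Gal80, against 9.65, 10.58 and 9.97 on the Tim arrays. How far this bears on low values of other neuronal genes with Pdf-Gal80 was not tested.

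Pdf cells differed from Tim cells in 222 of 7670 genes (2.89%), of which 93 were higher in Pdf cells (1.21%) and 129 lower (1.68%). A gene was called where its adjusted p, from limma's model of all 23 arrays, was under 0.05 and its fold at least 2. The fit took its estimate of spread from all 8 groups of the series. Fitted on the 6 arrays alone, limma called 5 genes, of which Eh, Idh3g, CG15082 and Dop2R, 4 in all, were among the 222 and CG7191 was not. The fit of the 8 groups called 126 genes without Tim replicate 1 and 136 without Tim replicate 2. The median log2 difference of all genes tested was -0.054. In 1225 genes (16.0%) the 3 Pdf arrays did not overlap with the 3 Tim arrays, higher in Pdf cells in 560 (7.30%) and lower in 665 (8.67%), and 206 of the 222 called genes were among them. Overlap was judged on the values as deposited, those under the limit of detection included. Groups could thus be apart only by the order of undetected values, which carries no meaning.

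**Figure D1:**
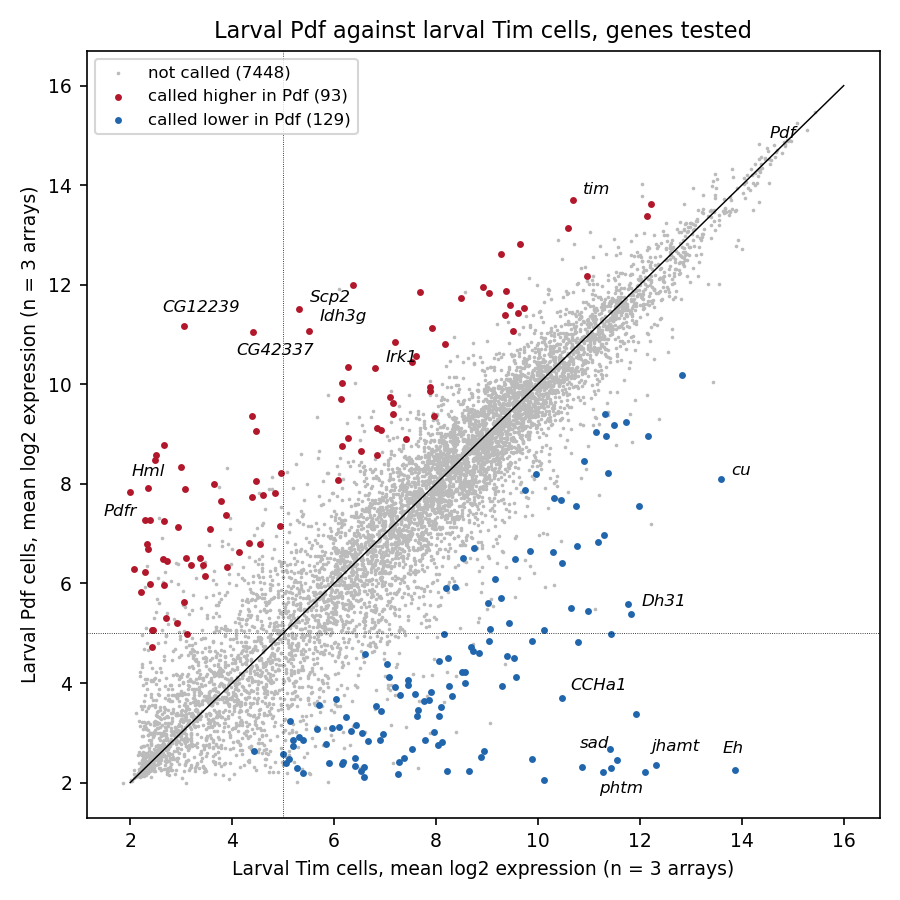
Mean log2 expression of each tested gene in larval Tim cells (x axis) against larval Pdf cells (y axis), n = 3 arrays each; the solid line marks equal values and the dotted lines the limit of detection at 5. Of the genes tested 93 were called higher in Pdf cells (red) and 129 lower (blue), with Eh, jhamt and phtm at the lower right and Pdf itself close to the line of equal values.

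Above the limit of detection on all 3 arrays of a group lay 5012 tested genes in Pdf cells and 5338 in Tim cells. Of the 129 genes called lower, 72 lay under the limit of detection on all 3 Pdf arrays, and of the 93 called higher, 40 lay under it on all 3 Tim arrays. The share of all genes tested under the limit on all 3 arrays of a group was not counted. The 72 and the 40 thus have no background to be read against. Genes above the limit on all Pdf arrays and below it on all Tim arrays numbered 28, of which 19 were called, against 57 in the reverse direction, of which 41 were called. Of the genes called lower 82 of 129 (63.6%) lay above 5 on all 3 arrays of the Tim cells from the Pdf-Gal80 line, a share close to the 60.5% of all genes tested. On all larval Elav arrays 33 of them (25.6%) lay above 5, against 63.5% of all genes tested. Among the genes called higher the shares were 37.6% and 33.3%, and 54 of the 93 (58.1%) lay above 5 on all 5 adult Pdf arrays, against 25 of the 129 called lower (19.4%) and 55.2% of all genes tested.

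Several of the genes furthest above Tim cells carry only a CG number. CG12239 read 15.34, 7.67 and 10.48 on the Pdf arrays and between 3.04 and 3.05 on the Tim arrays. Its level was at least 71.8-fold higher (adjusted p = 0.00144), with all Pdf arrays above all Tim arrays but a range among the Pdf arrays of many fold. CG42337 read 9.68, 11.46 and 12.03 against 5.62, 3.62 and 3.97, at least 57.8-fold higher (adjusted p = 7.35e-06). Only the first Tim array was above the limit of detection, and the groups were well apart. A further probe set of CG42337 was near background in both groups, with means of 2.93 and 2.37.

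Idh3g, a subunit of the mitochondrial enzyme isocitrate dehydrogenase, read 11.47, 11.15 and 10.59 on the Pdf arrays and 5.20, 5.62 and 5.72 on the Tim arrays. It was 47.1-fold higher (log2 difference 5.56 ± 0.48 SE, adjusted p = 9.05e-07) and was also called on the 6 arrays alone. Among the other larval cells it was not low: the Pdf-Gal80 arrays read 10.52, 10.24 and 9.62. Of these 3 groups the Tim arrays were the lowest for this gene. PGRP-LE, a peptidoglycan sensor of innate immunity, had a like order of groups, at 10.58, 7.54 and 9.06 in Pdf cells, 5.55, 4.10 and 3.77 in Tim cells and 9.22, 9.17 and 8.78 with Pdf-Gal80. It was at least 14.7-fold higher in Pdf than in Tim cells (adjusted p = 0.0195), a call lost without Pdf replicate 1 or 3 or Tim replicate 2 or 3. Of the 93 genes called higher, 20 were above 5 on all Pdf-Gal80 and all larval Elav arrays, Idh3g and PGRP-LE among them. Of all genes tested 60.5% were above 5 on all Pdf-Gal80 arrays and 63.5% on all larval Elav arrays. The share that met both conditions was not counted, so the 20 have no background to be read against.

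Scp2, a calcium-binding protein, read 11.28, 11.60 and 11.69 on the Pdf arrays and 4.20, 8.31 and 3.45 on the Tim arrays, where only the second was above the limit. It was at least 42.8-fold higher (adjusted p = 0.00323) and lay at 2.71, 2.52 and 2.66 with Pdf-Gal80. Syt7, a synaptotagmin and thus of the family of calcium sensors in exocytosis, read 9.55, 11.21 and 10.30 against 7.11, 5.49 and 6.21, 16.97-fold higher (adjusted p = 0.00565). Both genes kept the groups apart on all arrays. CG31183, which encodes a predicted receptor guanylate cyclase, read 8.72, 10.86 and 8.48 in Pdf cells and was under the limit on all Tim arrays, at least 20.4-fold higher (adjusted p = 1.23e-05). GstE6, a glutathione transferase, read 11.54, 7.82 and 7.0 against at most 3.21 in Tim cells (at least 13.8-fold, adjusted p = 0.00165).

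The 12 largest rises were completed by CG7607, CG45263, CG5023 and srp. CG7607 was at least 46.6-fold higher, CG45263 18.1-fold and CG5023 14.7-fold, each without overlap of the groups. The srp gene is a hemocyte regulator and is described with the hemocyte genes. The call of CG45263 was lost without Pdf replicate 2 or 3 or Tim replicate 1 or 2. It was also lost with the mean of all probe sets of a gene and with the probe set of the largest variance. Chosen after their values were seen, CG43373, CG14086 and Mct1 were under 5 on every Tim array and every Pdf-Gal80 array and above 5 on every Pdf array. CG43373 was at least 12.0-fold higher than in Tim cells, Mct1, of the monocarboxylate transporter family, at least 7.41-fold and CG14086 at least 7.17-fold. The small heat shock protein gene l(2)efl, also picked after seeing its values, was 9.0-fold higher (adjusted p = 0.00173), at 12.38, 13.09 and 12.98 against 9.20, 9.63 and 10.10.

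**Figure D2:**
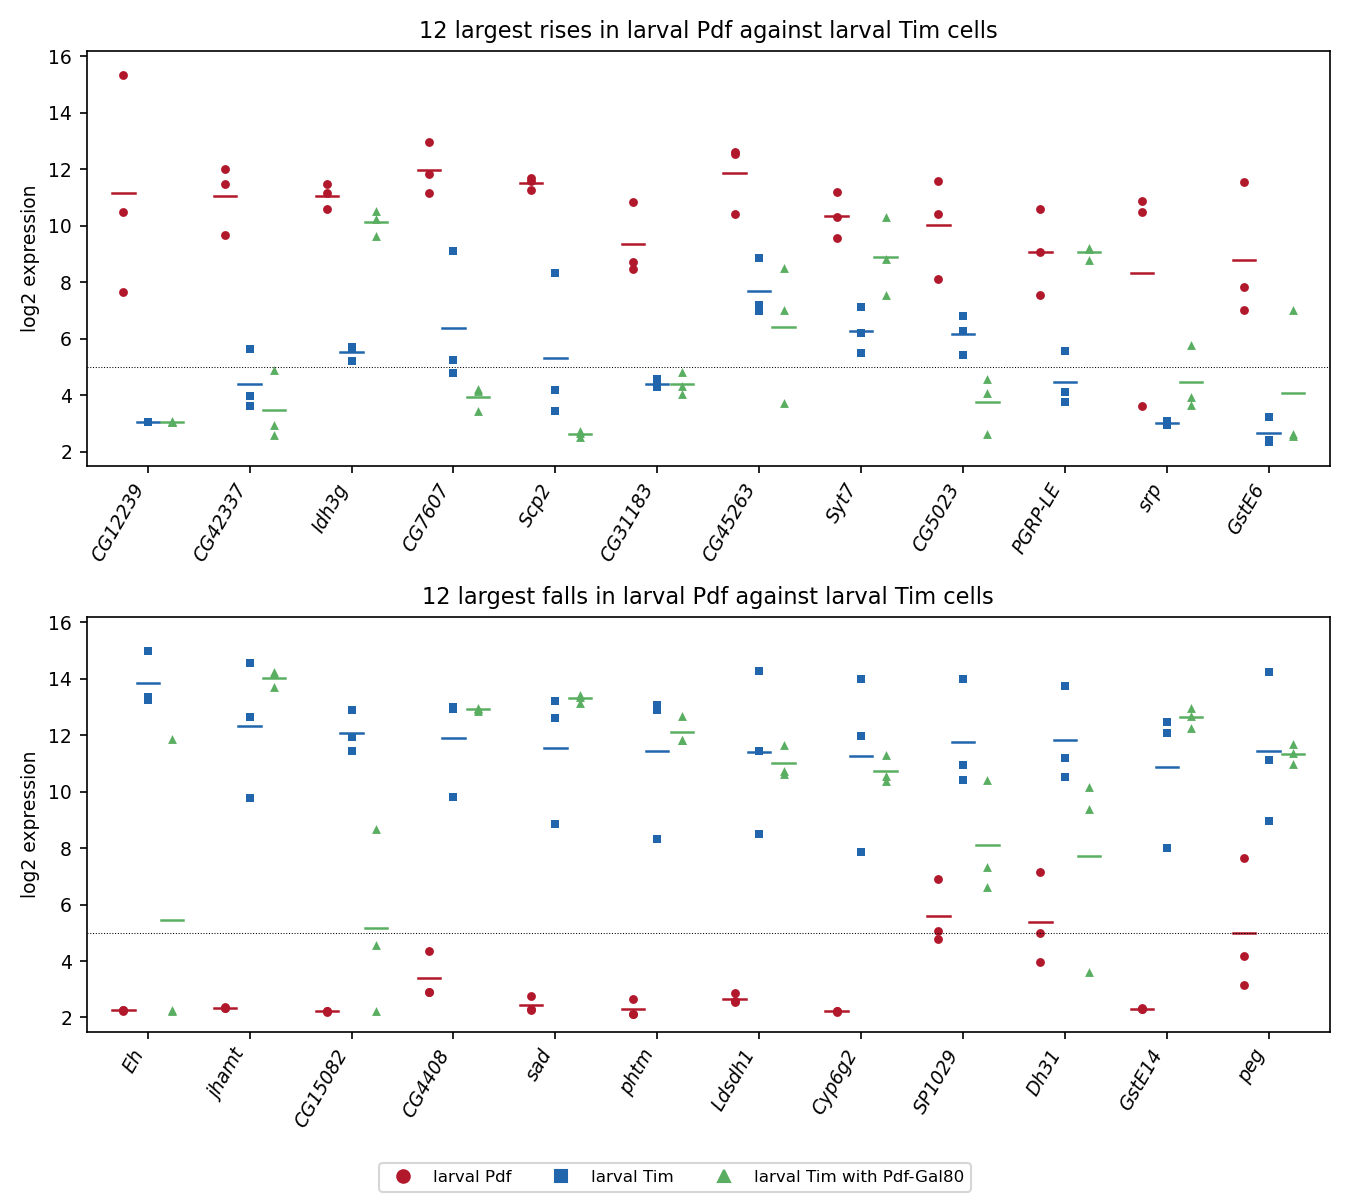
Log2 expression on each array (points) and group means (bars) of the 12 genes with the largest rises (top) and falls (bottom) in larval Pdf against larval Tim cells, with the Tim cells of the Pdf-Gal80 line beside them; the dotted line is the limit of detection at 5. Idh3g and PGRP-LE were high with Pdf-Gal80 too, while Eh was high on 1 of the 3 Pdf-Gal80 arrays.

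The clock runs on a loop in which CLK and CYC activate per and tim, whose products repress them. Each of the 8 genes of the core clock loop had a higher mean in Pdf cells, the median log2 difference being 2.02 against -0.054 for all genes, and 6 of the 8 did not overlap between groups (7.30% of all genes were higher without overlap). By the test 2 were called higher and 0 lower (background 1.21% higher). Timeless, the repressor partner of PERIOD, read 13.35, 13.98 and 13.78 in Pdf cells and 11.16, 10.95 and 9.95 in Tim cells, 8.09-fold higher (log2 difference 3.02 ± 0.53 SE, adjusted p = 0.00217). All Pdf arrays lay above all Tim arrays. A further probe set of tim had means of 8.11 and 7.42, and averaging the probe sets of a gene ended this call.

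Pdp1, an activator in the second loop of the clock, was the other member called. It read 12.12, 13.92 and 13.36 in Pdf cells and 11.09, 10.68 and 10.03 in Tim cells, 5.79-fold higher (adjusted p = 0.00646), again without overlap. The repressor gene vri read 13.51, 14.13 and 14.45 against 11.92, 12.40 and 11.82 and was not called (adjusted p = 0.0726). Clk, the activator that starts the loop, read 8.59, 10.29 and 11.17 against 6.71, 6.69 and 5.82 (adjusted p = 0.0742). The repressor cwo, at 12.25, 12.59 and 12.71 against 11.16, 10.84 and 9.40, likewise missed the threshold (adjusted p = 0.0696). These 3 genes had groups that did not overlap.

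The remaining loop genes differed less. The repressor per read 8.87, 9.95 and 10.30 in Pdf cells and 7.50, 8.48 and 8.49 in Tim cells, apart by a log2 difference of 1.55 ± 0.72 (SE) that was not called (adjusted p = 0.360). The blue-light photoreceptor gene cry overlapped, at 8.84, 12.08 and 12.55 against 9.56, 9.94 and 10.05. Cyc, the partner of CLK, also overlapped, with a log2 difference of 0.046 and a 95% confidence interval of -1.57 to 1.67. In the Pdf-Gal80 line cry lay at 5.92, 4.56 and 2.70 and per at 3.89, 6.91 and 3.41, below every Tim array. Among 10 kinases, phosphatases and other factors of clock protein turnover 0 were called.

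**Figure D3:**
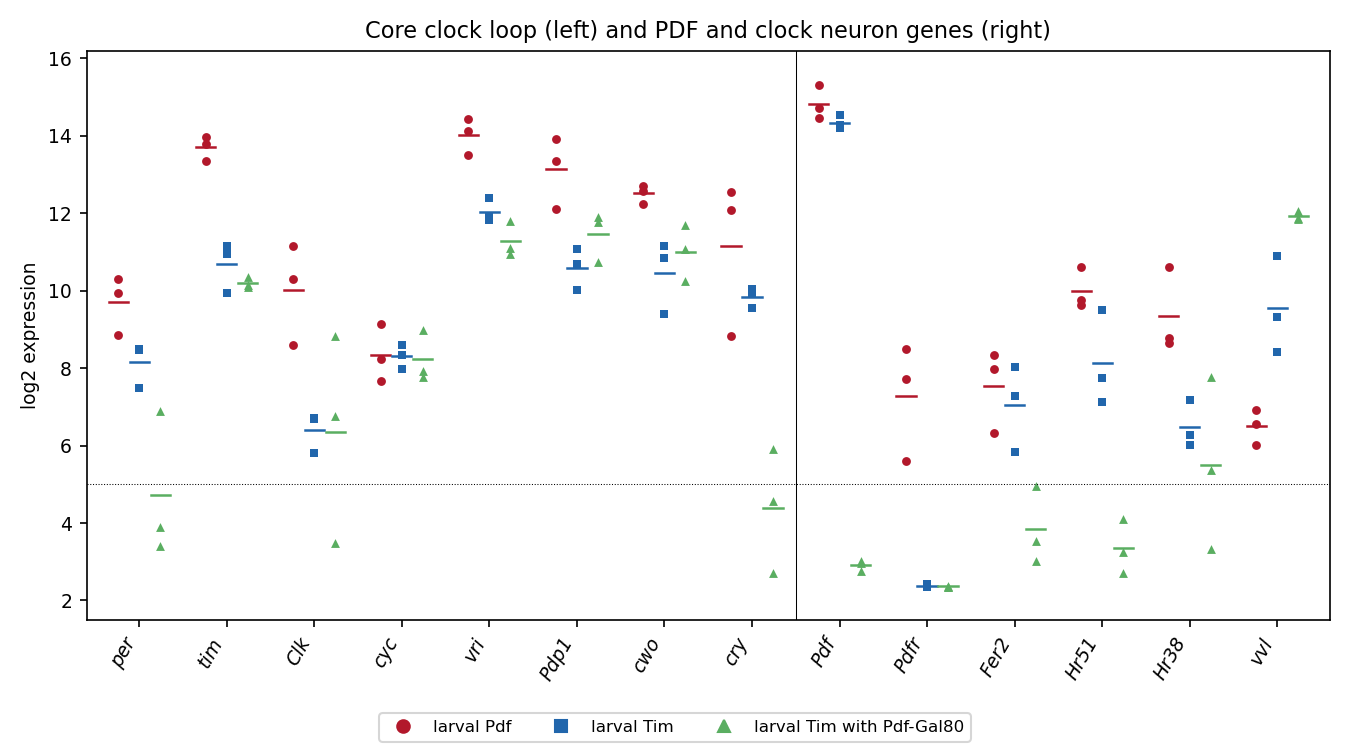
Log2 expression on each array (points) and group means (bars) of the 8 genes of the core clock feedback loop and of Pdf, Pdfr and clock neuron factors in larval Pdf cells, larval Tim cells and Tim cells of the Pdf-Gal80 line; the dotted line is the limit of detection at 5. Pdf overlapped between Pdf and Tim cells, whereas tim and Pdp1 were called higher in Pdf cells and Pdfr was detected in Pdf cells only among these 3 groups.

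The PDF receptor gene Pdfr read 5.61, 7.71 and 8.50 on the Pdf arrays and between 2.35 and 2.44 on the Tim arrays. It was at least 4.84-fold higher (log2 difference 4.89 ± 0.50 SE, adjusted p = 6.11e-06), and every Tim and Pdf-Gal80 array lay under the limit of detection. Pdf itself overlapped between the groups, as given above. The leucokinin receptor gene Lkr went the other way, at 4.50, 3.24 and 3.48 in Pdf cells against 8.49, 9.46 and 6.96 in Tim cells, at least 9.89-fold lower (adjusted p = 0.0153). These were the only calls among 15 tested neuropeptide receptors (background 2.89%), whose median difference was -0.023. Without Pdf replicate 2 or 3 or Tim replicate 1 or 2 the call of Lkr was lost.

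Among 15 clock neuron transcription factors 0 were called higher and 1 lower (background 1.68% lower). Vvl, a POU-homeodomain factor, read 6.0, 6.57 and 6.92 in Pdf cells and 10.91, 9.32 and 8.43 in Tim cells, 8.30-fold lower (adjusted p = 0.00951), without overlap. The call was lost without Tim replicate 1, and the gene read between 11.87 and 12.07 with Pdf-Gal80. Fer2, a basic helix-loop-helix factor needed by PDF neurons, read 8.35, 6.33 and 7.98 in Pdf cells and 5.84, 8.03 and 7.28 in Tim cells. The groups overlapped, and the log2 difference of 0.50 ± 0.66 (SE) was not called. The nuclear receptor Hr51 (unfulfilled) read 9.63, 9.77 and 10.61 against 7.11, 9.51 and 7.76 and was not called either (adjusted p = 0.316). Both Fer2 and Hr51 were under 5 on all Pdf-Gal80 arrays. In the wider homeobox list 2 of 32 genes were called lower (background 1.68%), vvl and the retinal homeobox gene Rx, and 0 higher, with a median of -0.76. Without Pdf replicate 1 the count lower was 4, and without Tim replicate 1 it was 1.

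Of 27 tested neuropeptide and peptide hormone genes 6 were called lower in Pdf cells and 0 higher (background 1.68% lower). The median log2 difference was -1.25, and 20 of the 27 differences were negative. On each Pdf array 4 to 8 of the 35 measured peptide genes were above the limit of detection, and on each Tim array 15 to 16. Eclosion hormone (Eh), made by a pair of brain neurons and a trigger of ecdysis, read 2.28, 2.24 and 2.25 on the Pdf arrays and 13.35, 14.99 and 13.26 on the Tim arrays. It was at least 466-fold lower (log2 difference -11.61 ± 1.66 SE, adjusted p = 3.12e-04) and was the largest fall. With Pdf-Gal80 it was high on the first array, 11.87, and at 2.23 and 2.26 on the other two.

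CCHa1 and Dh31, peptides known from dorsal clock neurons, were lower in Pdf cells. CCHa1 read 3.83, 3.97 and 3.27 against 10.72, 11.48 and 9.20, at least 44.2-fold lower (adjusted p = 3.09e-04). Dh31, a diuretic hormone, read 3.97, 7.17 and 5.01 against 11.20, 13.76 and 10.53, at least 68.8-fold lower (adjusted p = 0.0493), and this call was lost on leaving out any of the 6 arrays. The groups were apart for both genes, although Dh31 was above the limit on 2 of the 3 Pdf arrays. Dh44, a second diuretic hormone, read 3.87, 5.92 and 3.83 against 11.40, 9.52 and 7.28, at least 17.1-fold lower (adjusted p = 0.00955), a call lost without Tim replicate 1. Allatostatin C, encoded by AstC, was not called (adjusted p = 0.158): it read 3.11 and 6.02 on the first and second Pdf arrays but 12.44 on the third, within the Tim range of 11.54 to 13.22.

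The remaining peptides varied between arrays. Myoinhibiting peptide (Mip) was under 5 on all Pdf arrays and read 6.92, 6.44 and 10.01 in Tim cells, at least 6.94-fold lower (adjusted p = 0.00146). The bursicon subunit gene Burs read between 2.39 and 2.42 on the Pdf arrays and read 4.43, 9.12 and 8.25 in Tim cells, at least 4.81-fold lower (adjusted p = 0.00139). Several other peptides were high on only some arrays. Akh, the hormone of the corpora cardiaca, read 13.42 on the first Tim array and at most 2.21 on the other 5 arrays. Nplp2 read 14.44, 14.34 and 6.98 in Pdf cells and 10.10, 4.09 and 4.10 in Tim cells, and was not called (adjusted p = 0.0843). Myosuppressin (Ms), at 4.82, 3.52 and 2.49 against 12.46, 5.80 and 6.20, missed the threshold too (adjusted p = 0.0577). The ion transport peptide gene ITP overlapped, at 9.0, 6.85 and 7.10 against 8.95, 9.05 and 8.69. Nplp1 read 4.18, 7.40 and 7.83 in Pdf cells against 10.30, 10.15 and 8.79, apart but not called (adjusted p = 0.0728).

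Genes of peptide release gave 2 calls. Of 14 tested genes of peptide processing and dense core vesicles 2 were higher (background 1.21%) and 0 lower, with a median of 0.93, and 1 was higher without Pdf replicate 2 or 3 or Tim replicate 1 or 2. Rab3-GEF, the exchange factor of the vesicle protein Rab3, read 10.10, 11.36 and 11.92 against 7.79, 8.04 and 7.95, 9.20-fold higher (adjusted p = 0.00202), without overlap. Nep1, a neprilysin that cleaves peptides outside cells, was at least 3.11-fold higher (adjusted p = 0.0427), a call lost without Pdf replicate 2 or 3 or Tim replicate 1 or 2. Enzymes that make active peptides were not called, among them amon, the prohormone convertase, with means of 10.33 and 11.79, and Phm, the amidating enzyme, with 11.53 and 10.93.

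Ecdysteroid synthesis genes made up the list with the most calls. The enzymes of this list turn cholesterol into ecdysone in the prothoracic gland, a part of the ring gland next to the larval brain. The list also holds genes of regulation, of cholesterol and ecdysone transport and of ecdysone inactivation. The called genes tor, ouib, Oatp74D and Start1 are of these further kinds. Of 17 tested 11 were lower in Pdf cells and 0 higher (background 1.68% lower), with a median log2 difference of -3.80, and 6 of the 19 measured lay above the limit of detection on each Pdf array. The list's mean was 4.44, 4.11 and 4.21 on the Pdf arrays and 9.45, 9.03 and 5.96 on the Tim arrays. With Pdf-Gal80 it lay between 9.79 and 9.82. All Pdf arrays were below all Tim arrays, and the third Tim array was the lowest of its group. The count of 11 fell to 6 without Tim replicate 1, to 6 without Tim replicate 2 and to 7 without Pdf replicate 2, and was 14 without Tim replicate 3. How far ring gland cells had a part in the difference was not tested.

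The P450 gene phtm (phantom), which acts midway in the pathway, read 2.64, 2.11 and 2.11 in Pdf cells and 12.89, 13.08 and 8.34 in Tim cells. It was at least 86.6-fold lower (log2 difference -9.15 ± 0.79 SE, adjusted p = 9.05e-07). Sad (shadow), a later P450, read 2.78, 2.28 and 2.30 against 12.60, 13.22 and 8.85, at least 94.2-fold lower (adjusted p = 3.95e-07). Both were undetected on every Pdf array. GstE14 (noppera-bo), which acts on cholesterol supply, was at least 58.1-fold lower (adjusted p = 5.23e-05), spok (spookier), a P450 of an early step, at least 29.7-fold and ouib, a zinc finger activator of spok, at least 14.7-fold. Tor, the receptor of the prothoracicotropic hormone, was at least 2.24-fold lower, with Tim arrays at 8.54, 5.85 and 4.11.

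The early enzymes nvd and sro read near background on the third Tim array, at 2.40 and 2.94, and so did dib at 2.58. Nvd, the first step from cholesterol, read 8.42 and 7.71 on the other Tim arrays and was at least 2.26-fold lower in Pdf cells (adjusted p = 0.0314). Its groups overlapped, its call was lost without each of the Pdf arrays in turn or without Tim replicate 1 or 2, and its log2 difference grew from -3.75 to -5.64 without Tim replicate 3. The call of sro was lost without Tim replicate 1 or 2, and that of dib, the P450 disembodied, without Pdf replicate 2 or 3 or Tim replicate 1 or 2, with a log2 difference of -2.13 without Tim replicate 1. Oatp74D, the importer of ecdysone, was detected on all 6 arrays and was 21.6-fold lower (adjusted p = 0.0279), and the cholesterol transport gene Start1 was 6.09-fold lower (adjusted p = 0.0337). The call of Oatp74D was lost under the same omissions as that of dib, and that of Start1, whose groups overlapped, without Pdf replicate 1 or 2 or Tim replicate 1 or 2. Npc1a and Npc2a, of cholesterol trafficking, Cyp18a1, which inactivates ecdysone, and Fdx2 were not called, and 0 of 15 nuclear receptor and ecdysone response genes were.

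Genes of juvenile hormone synthesis, the task of the corpora allata in the same ring gland, had 5 called lower and 0 higher of 11 tested (background 1.68% lower), with a median of -2.36. The last enzyme of the pathway, jhamt, read 2.35, 2.32 and 2.37 in Pdf cells and 14.56, 12.65 and 9.77 in Tim cells. Its level was at least 160.4-fold lower (log2 difference -9.98 ± 0.70 SE, adjusted p = 9.16e-08). The P450 gene Cyp6g2 read at most 2.24 in Pdf cells and 13.97, 11.98 and 7.88 in Tim cells, at least 77.5-fold lower (adjusted p = 7.35e-06). Both genes were undetected on all Pdf arrays and high on all Pdf-Gal80 arrays, jhamt between 13.71 and 14.22.

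The mevalonate branch that feeds this pathway is used by all cells, and its genes were partly detected in Pdf cells. Mvd was at least 20.3-fold lower (adjusted p = 0.0208), Pmvk at least 14.4-fold (adjusted p = 0.0347) and Fpps, the farnesyl diphosphate synthase, 9.28-fold (adjusted p = 0.0404), while Hmgs, 5.12-fold lower, was not called (adjusted p = 0.109). The calls of Mvd and Pmvk were lost without Pdf replicate 2 or 3 or Tim replicate 1 or 2, and that of Fpps without each of the Pdf arrays in turn or without Tim replicate 1 or 2, and the groups of Mvd overlapped. The count of 5 was 4 without Pdf replicate 1 and 6 without Tim replicate 3, and 2 without each of the other arrays in turn. The list's mean lay between 6.54 and 6.79 on the Pdf arrays and was 11.14, 9.68 and 8.02 on the Tim arrays.

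Other genes among the 12 largest falls, which lie in none of the lists, were CG15082, CG4408, Ldsdh1, SP1029 and peg. CG15082 read between 2.20 and 2.24 in Pdf cells and 11.93, 12.90 and 11.44 in Tim cells, at least 136-fold lower (adjusted p = 7.35e-06), and like Eh was uneven with Pdf-Gal80, at 4.57, 8.66 and 2.24. CG4408 was at least 120.7-fold lower and Ldsdh1, a dehydrogenase of lipid droplets, at least 84.9-fold. These 3 were undetected on every Pdf array. SP1029 was at least 69.1-fold lower, with 2 of the 3 Pdf arrays above the limit, a call lost without Pdf replicate 2 or 3 or Tim replicate 2, and peg at least 47.0-fold, with 1 Pdf array above it. Chosen after its values were seen, cu (curled), the fly homologue of the deadenylase nocturnin, read 9.18, 7.72 and 7.42 in Pdf cells and 15.11, 13.97 and 11.70 in Tim cells, 44.9-fold lower (adjusted p = 7.51e-05). It was detected in both groups without overlap and lay between 13.99 and 14.57 with Pdf-Gal80.

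**Figure D4:**
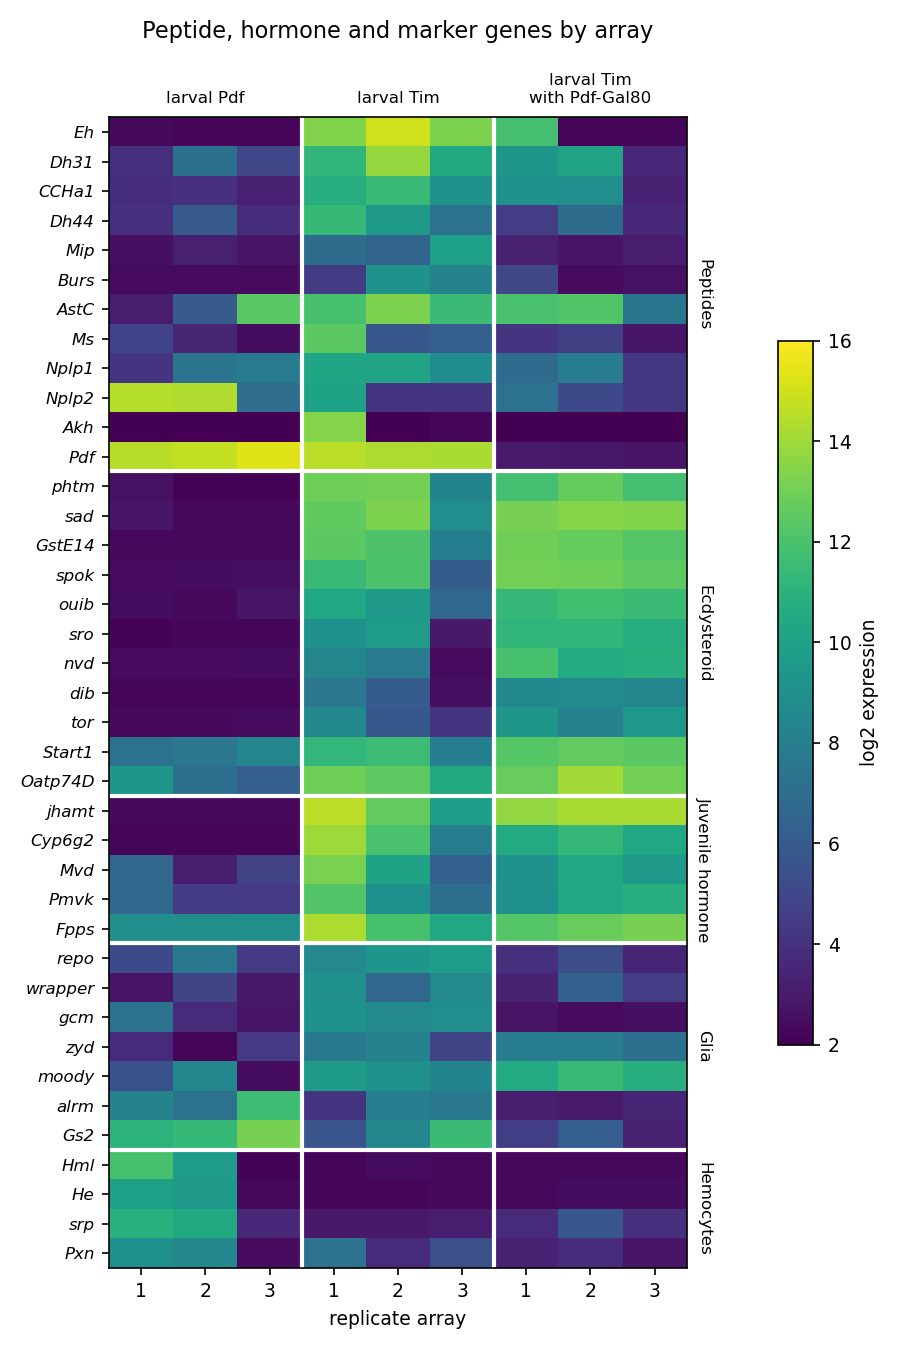
Log2 expression (colour scale, 2 to 16) on each replicate array of peptide, ecdysteroid, juvenile hormone, glial and hemocyte genes in larval Pdf cells, larval Tim cells and Tim cells of the Pdf-Gal80 line. The ecdysteroid and juvenile hormone genes had lower means in Pdf than in Tim cells and were lowest among the Tim arrays on the third. Hml, He and srp were high on the first and second Pdf arrays only.

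Markers of other cell types differed as well. Of 23 tested glial genes 4 were lower in Pdf cells and 0 higher (background 1.68% lower), with a median of -0.36. Repo, the transcription factor of nearly all lateral glia, read 5.12, 7.61 and 4.39 in Pdf cells and 8.61, 9.37 and 9.87 in Tim cells, at least 10.3-fold lower (adjusted p = 0.00810). The groups were apart, but 2 of the 3 Pdf arrays were above the limit, and the call was lost without Pdf replicate 3. Wrapper, of glia that enwrap neurons, was at least 8.52-fold lower (adjusted p = 0.00324), and gcm, the early glial determinant, at least 8.39-fold (adjusted p = 0.00703), at 7.34, 3.65 and 2.84 against 9.11, 8.59 and 8.85. The exchanger gene zyd was at least 3.77-fold lower, a call lost without Pdf replicate 2 or Tim replicate 1 or 2.

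Some glial genes had higher means in Pdf cells. Gs2, glutamine synthetase, read 11.04, 11.37 and 13.13 in Pdf cells against 5.71, 8.44 and 11.56 in Tim cells, and alrm, an astrocyte gene, 8.24, 7.30 and 11.65 against 4.12, 8.07 and 7.58. Both overlapped between groups and neither was called (adjusted p = 0.150 and 0.221). Over the 26 measured glial genes the mean level lay between 6.41 and 6.64 on the Pdf arrays and between 7.03 and 7.23 on the Tim arrays, and 15 to 17 genes against 16 to 19 were above the limit. The part of glia in the other differences was not tested.

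Hemocyte genes, of the blood cells of the fly, had 3 called higher and 1 lower of 17 tested (background 1.21% and 1.68%), with a median of 0.18, and the gene called lower was gcm, which the glial list holds too. Hml, hemolectin, read 11.91, 9.69 and 2.14 on the Pdf arrays and at most 2.45 on the Tim arrays. The surface protein gene He read 9.94, 9.56 and 2.31 against at most 2.36, and the GATA factor srp 10.88, 10.50 and 3.63 against at most 3.08. These genes were high on the first and second Pdf arrays and at background on the third, where Hml and He were no higher than on the Tim arrays. Hml was at least 7.54-fold higher (adjusted p = 0.0359), srp at least 10.1-fold (adjusted p = 0.0142) and He at least 4.82-fold (adjusted p = 0.0222), with 0 of the 3 called without Pdf replicate 1 or without Pdf replicate 2.

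Over the 21 measured hemocyte genes 13, 11 and 4 were above the limit on the Pdf arrays and 7 on each Tim array, with a mean level of 6.35, 5.87 and 3.60 against 4.38 to 4.47. Without Tim replicate 1 also 0 were called higher, without Tim replicate 2 it was 1, and without Pdf replicate 3 it was 5, when the log2 difference of Hml was 8.45 in place of 5.56. Of the 93 genes called higher 10 were above 5 on the first and second Pdf arrays and under 5 on the third. The share of all genes tested with this order was not counted, so the 10 have no background to be read against. With the first and second Pdf arrays left out, a setting chosen after the data were seen, only the third Pdf array remained. This setting holds no spread among Pdf arrays, so only differences are given. The log2 difference was 3.10 for tim, 2.76 for Pdp1 and 6.12 for Pdfr, and -0.21 for Hml, 0.026 for He and 0.63 for srp. The part of hemocytes in the other genes called higher was not tested. Of 8 fat body genes 1 was called lower (background 1.68%) and 0 higher. It was Apoltp, at least 6.66-fold lower (adjusted p = 0.0116, lost without Pdf replicate 2 or 3 or Tim replicate 2), while apolpp had a log2 difference of -4.34 and was not called (adjusted p = 0.0752), and of 10 muscle genes 0 were called.

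Genes of excitability and signalling gave few calls. Of 15 potassium channels 2 were called higher and 1 lower (background 1.21% and 1.68%). The 2 higher fell to 0 without Pdf replicate 2, Pdf replicate 3 or Tim replicate 3, and to 1 without Tim replicate 1. The inward rectifier Irk1 read 9.50, 10.29 and 11.18 in Pdf cells against 8.15, 7.39 and 4.87, at least 11.2-fold higher (adjusted p = 0.0175), a call lost without Pdf replicate 2 or 3 or Tim replicate 3. The calcium-activated channel SK was 3.49-fold higher (adjusted p = 0.0322), lost without Pdf replicate 2 or 3 or Tim replicate 1 or 3. The voltage-gated channel Elk read 2.66, 3.47 and 4.25 against 7.84, 8.63 and 6.48, at least 6.29-fold lower (adjusted p = 9.14e-04), a call kept on leaving out each array in turn. All 3 channels had groups that did not overlap.

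The dopamine receptor gene Dop2R read 4.41, 4.60 and 4.91 in Pdf cells and 8.66, 8.77 and 8.73 in Tim cells, at least 13.2-fold lower (adjusted p = 0.0154). It was the only call among 12 amine and metabotropic receptors, and it was lost without Pdf replicate 2 or Tim replicate 1 or 2. A further probe set of Dop2R was near background in both groups, with means of 2.20 and 2.41, and averaging the probe sets of a gene ended this call. Pu, which starts the synthesis of the biopterin cofactor of amine synthesis, was at least 7.90-fold lower (adjusted p = 0.0279), the only call among 15 genes of transmitter synthesis and transport. Crtc, the coactivator of CREB, was 4.40-fold higher (adjusted p = 0.0300), the only call among 16 genes of cAMP signalling. Over all genes tested 2.89% were called. The calls of Pu and Crtc were lost without Pdf replicate 2 or 3 or Tim replicate 1 or 2. Galphaq, the G protein subunit that couples rhodopsin and other receptors to phospholipase C, was 3.98-fold higher (adjusted p = 0.00356), the only call among 17 phototransduction genes. Its 2 other probe sets differed by -0.089 and 0.052, so this call rests on 1 probe set.

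In 16 of the 32 lists limma called 0 genes. They held 384 genes, of which 32 had an unadjusted p under 0.05, against 12.96% of all genes tested. Besides those already named they were ionotropic receptors, sodium, calcium, leak and pacemaker channels, calcineurin, heat shock and immediate early genes, axon guidance, neuroblast and proliferation genes, and Dpr and DIP cell-surface proteins. The others were cytosolic and mitochondrial ribosomal proteins, oxidative phosphorylation, the proteasome and the vacuolar ATPase. In these last lists the median differences were small: mitochondrial ribosomal proteins stood at -0.30 with 56 of 69 negative, oxidative phosphorylation at -0.39 with 49 of 55 negative and the proteasome at -0.33 with 26 of 28 negative. With arrays centred on their medians the 3 medians were -0.19, -0.29 and -0.22. Other lists with 0 called had positive medians. Sodium, calcium, leak and pacemaker channels stood at 0.60 with 13 of 17 positive. Synaptic vesicle and pan-neuronal genes stood at 0.52 with 12 of 19 positive. Of the called genes 81 higher and 96 lower lay in none of the lists.

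**Figure D5:**
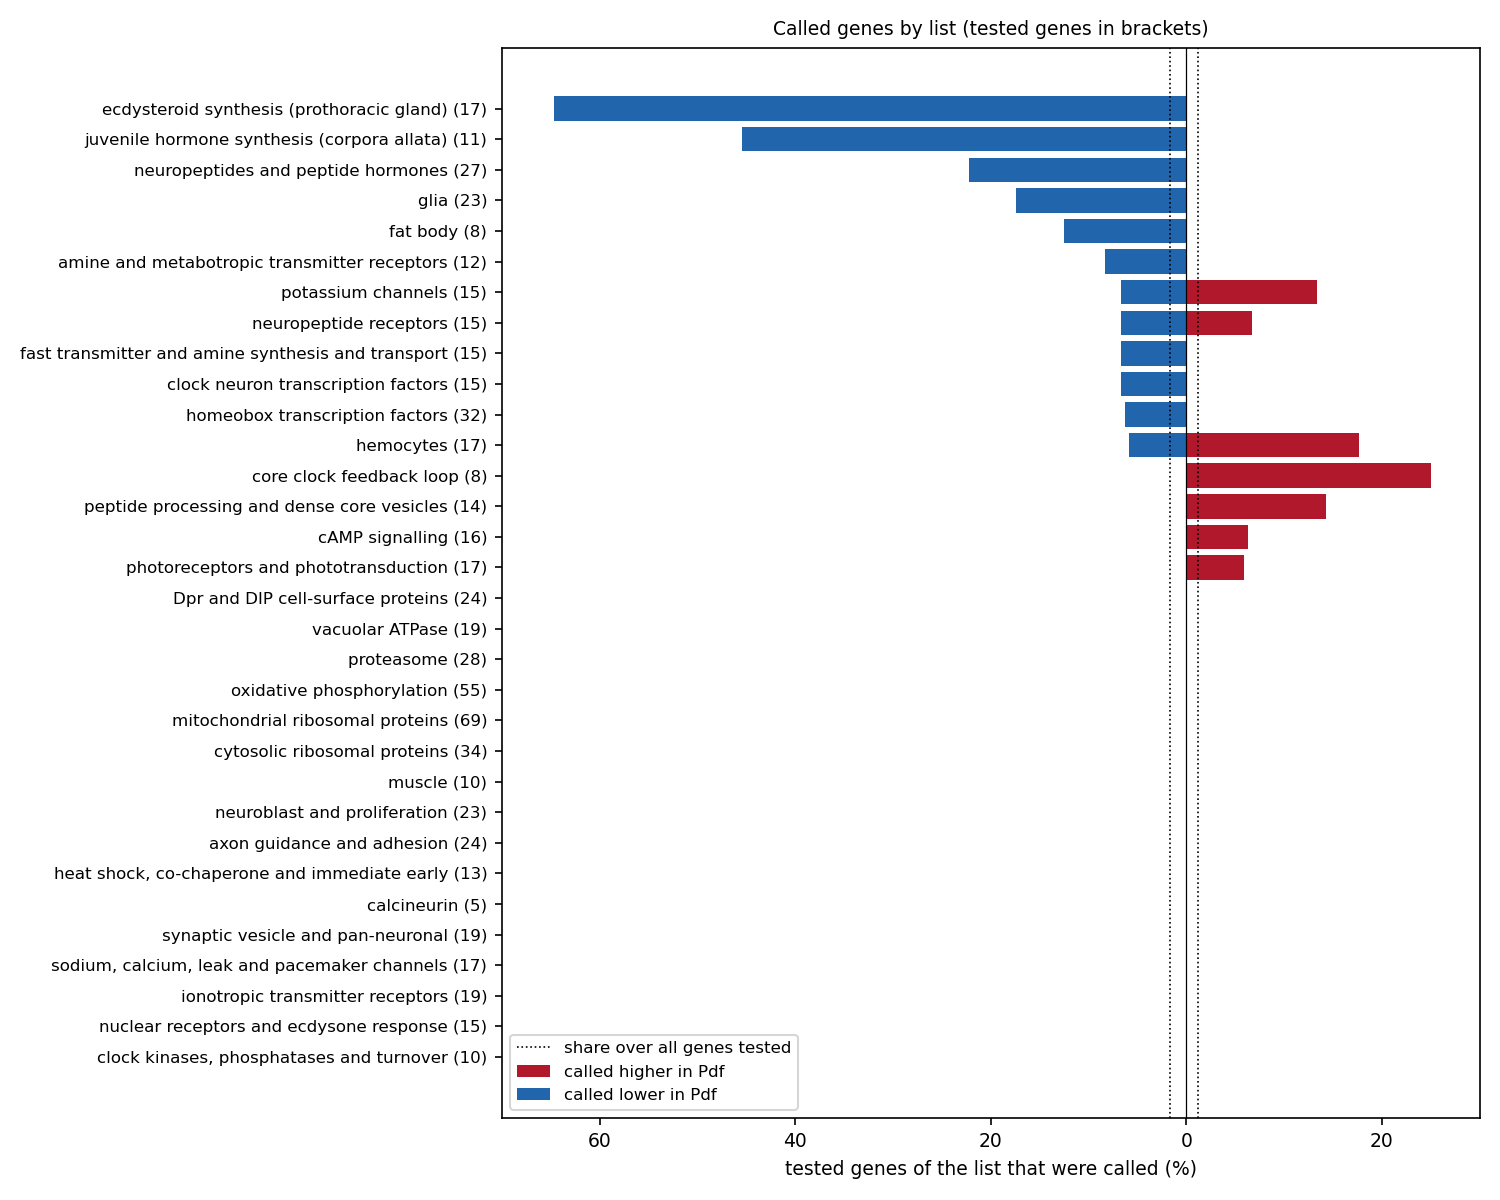
Share of the tested genes of each list (number tested in brackets) called lower (bars to the left) and higher (bars to the right) in larval Pdf against larval Tim cells, in percent; dotted lines give the shares over all genes tested, 1.68% lower and 1.21% higher. Ecdysteroid synthesis had 11 of 17 lower and the core clock loop 2 of 8 higher, and 16 lists had 0 called.

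The called genes were not spread evenly over the arrays. Among the 129 genes called lower the third Tim array was the lowest of the Tim arrays in 95 (73.6%), against 41.2% of all genes tested. Among the 93 called higher the first Pdf array was the lowest Pdf array in 52 (55.9%), against 35.0% of all genes. Without Tim replicate 3 the genes called lower rose in number to 215, and 77 were called higher. Without Tim replicate 1 there were 55 higher and 71 lower, without Tim replicate 2 50 and 86, without Pdf replicate 2 60 and 93, and without Pdf replicate 3 97 and 79.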

How the data were processed

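The deposited values are log2 expression per probe set. Per the submitters' processing notes GCRMA was used, which models background from probe sequence, normalises arrays and summarises probes. Its version and settings, and whether all arrays shared 1 run, are not given here. Per the labels' protocols, 0.1 to 0.4 ng of RNA went through 2 rounds of T7 amplification, which shortens transcripts towards their 3' ends, so levels of different genes are not set against each other. No batch or scan date was given.

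Of 18952 probe sets, 183 were controls, 13647 had 1 gene in the platform annotation, 402 several and 4720 none, and only those with 1 gene were used. Symbols were updated for 13544 through RefSeq's gene table (assembly Release 6 plus ISO1 MT, names only). Each of 11982 genes took its probe set with the highest mean, a choice that bore on 1094 genes, and 7670 (64.0%) above 5 on at least 2 of 23 arrays were tested.

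Samples were grouped by title. Limma 3.58.1 in R 4.3.3 fitted 8 group means to 23 arrays (residual degrees of freedom 15), with eBayes and two-sided tests, and p-values were Benjamini-Hochberg adjusted over 7670 genes. A gene was called at an adjusted p under 0.05 and a fold of at least 2. Where the dimmer group had an array under 5, folds are given as "at least", as the brighter group's mean against the dimmer group's with values under 5 raised to 5. A gene could be called when its bound was low, as for tor, since the test used the values as deposited. No pair of arrays shared more than 1.39% of values.

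The comparison, the gene lists and the tests were chosen with earlier results of these data known. Named genes were Pdf, tim and Fer2, the 12 largest rises and falls among called genes without overlap (differences with values under 5 raised to 5), up to 4 called members of each list and direction, and members of the clock, clock neuron, neuropeptide, ecdysteroid and juvenile hormone lists. Some list symbols were respelled to RefSeq's. The fit was checked on simulated data, with 1 spread per gene in all groups. It called 20% of the genes changed by a log2 difference of 1.5, 44% at 2, 64% at 3 and 82% at 4. Of 7470 unchanged genes it called 10. Many real differences could thus go uncalled. Such data cannot show whether the groups share 1 spread, since this was built in. Alternatives changed the arrays fitted, the variance model, the filter, the probe set, the scaling and the threshold, and left out each array in turn. The main fit did not pair samples by replicate number. Deviations of same-numbered Pdf and Tim arrays correlated with r of 0.055, -0.24 and -0.072, and those of other-numbered arrays with r from -0.14 to 0.26. So few values, which are not independent, cannot exclude a pairing.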

Additional observations from a re-analysis of the deposited data

How the results depend on the processing

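The total of 222 called genes depended most on the arrays that estimate the spread. It was 5 on the 6 arrays alone (1 higher, 4 lower), 108 on the 12 larval arrays (37 and 71) and 495 with array weights (203 and 292), and 96 at an adjusted p under 0.01 (35 and 61). Leaving out each array in turn gave 126 to 292 called genes, 50 to 124 higher and 71 to 215 lower. A replicate block by the numbers in the titles left 197 calls over all 23 arrays and 0 on the 6 arrays. With this block on the 6 arrays 697 genes had an unadjusted p under 0.05 in limma. Filters, probe set choice, variance priors, values raised to 5 and renewed scaling gave between 163 and 240 calls, within 1.5 times the main count. The genes called were not all the same. Of the 222 main calls 153 were kept with values under 5 raised to 5, and 153 with no filter on low values. With values raised to 5, 57 of 66 named calls were kept. Those of tor, Lkr, nvd, dib, Pmvk, Rx, zyd, Nep1 and Hml were lost. Calls higher in Pdf cells were 41.9% of the total, 50.8% after quantile normalisation again and 47.8% with arrays centred on their medians, which moved the median of all genes from -0.054 to 0.053. Genes with no call changed sign in some settings: cyc with array weights (-0.13), without both Pdf arrays with hemocyte genes (-0.074) and on leaving out single arrays (-0.35 without Pdf replicate 1 and -0.12 without Tim replicate 1, to 0.38), Fer2 with array weights (-0.42) and without Tim replicate 1 (-0.11, to 1.11 without Pdf replicate 2), and AstC without both of those Pdf arrays (0.22). Hml, called higher, turned to -0.21 there, and He and srp were at 0.026 and 0.63. Without both of those Pdf arrays each difference is that of the third Pdf array alone from the Tim mean. The arrays were left out because their hemocyte genes were high, so the values of Hml, He and srp there were fixed by that choice. The cause of the other changes was not tested. GCRMA values under 5 carry no order, so folds against them are bounds.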
